A study of Mus musculus with 8 samples.

Results

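Protocadherin genes were examined in 8 expression arrays of cells and tissue from the mouse small intestine. A gene was a member when its symbol, in an array annotation that named that gene alone for the probe set, started with Pcdh. This gave 35 of the 18193 genes with a probe set of their own. Of these, 12 were non-clustered and 23 were clustered, namely 22 Pcdhb genes and 1 Pcdhg gene, Pcdhgc4. The count of Pcdha members was 0, because the annotation named a Pcdha gene only together with other Pcdha genes. Where a gene had several probe sets (16 of the 35 did), its value was taken from the probe set whose mean over all 8 arrays was highest. That mean is the only measured value the choice used.

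Protocadherins are the largest group of cadherins, single-pass membrane proteins that bind like molecules on the neighbouring cell through calcium-dependent extracellular repeats. The clustered genes lie in alpha, beta and gamma arrays in which each variable exon has its own promoter, and neurons use different members, which lets them tell their own branches from those of other cells. The non-clustered genes are scattered singly, and most fall into the delta-1 and delta-2 classes, whose cytoplasmic tails reach the actin cytoskeleton and which sort cells and steer axons and synapses.

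BALB/c mice aged 6 to 9 days gave the small intestines, and no treatment is named. The groups were ICC-DMP cells (3 arrays), ICC-MY cells (3 arrays) and whole muscle coat, the tunica muscularis (2 arrays), called tissue here. ICC stands in this field for interstitial cells of Cajal, which pace gut muscle and relay nerve signals to it, and DMP and MY for the deep muscular and myenteric plexus where they lie. The isolation method and the number of animals behind each sample were not given in the sources used. Arrays are written by group and replicate number as DMP1 to DMP3, MY1 to MY3, TM1 and TM2. The design text sets each ICC class against the muscle coat and the classes against each other.

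Array medians ran from 4.18 to 4.30 on the log2 scale. Values spread less on MY1 and TM1 (SD over probe sets 1.98 and 2.06) than on the remaining arrays (2.22 to 2.31). The 3' minus 5' signal of the actin control, a sign of RNA integrity, was highest in replicate 3 of each ICC class (4.66 and 4.28, against 2.53 to 3.53). The 10 ICC markers averaged 9.46 to 9.69 on the ICC-DMP arrays, 10.29 to 11.59 on the ICC-MY arrays and 8.10 to 8.91 in tissue. Of the other cell types, 13 enteric neuron markers averaged 3.95 to 4.05 in ICC-DMP and 4.05 to 4.08 in ICC-MY, against 7.87 to 8.24 in tissue, and 8 mesothelial markers averaged 4.36 to 4.43 and 4.04 to 4.23, against 8.95 to 9.17. Markers of cells near ICC were high in the isolated cells too: 8 fibroblast and PDGFRA cell markers averaged 10.33 to 10.74 and 9.20 to 10.03, and 7 pericyte markers 8.43 to 8.63 and 8.16 to 8.94. These are bulk samples, so fewer cells of a type and less RNA per cell cannot be told apart.

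Pcdh17 set ICC-MY apart from both other groups. This delta-2 protocadherin recruits the WAVE actin regulators to cell contacts and takes part in synapse assembly. It read 11.50, 12.29 and 12.00 on the 3 ICC-MY arrays, 7.10, 6.93 and 6.45 on the 3 ICC-DMP arrays, and 7.47 and 8.56 in tissue. The 3 groups did not overlap, with ICC-MY highest and ICC-DMP lowest. Pcdh17 had a mean of 11.93 ± 0.40 in ICC-MY and 6.83 ± 0.34 in ICC-DMP (SD, n = 3 each), a 34.3-fold difference (-5.10 for ICC-DMP minus ICC-MY on the log2 scale, SE 0.33, limma adjusted p = 5.65e-05). Against tissue, at 8.01 ± 0.77 (n = 2), ICC-MY was higher by 3.92 (SE 0.36, 15.1-fold, adjusted p = 0.000218). Its other probe set gave 10.45, 11.70 and 12.14 in ICC-MY, 5.60 to 5.75 in ICC-DMP, and 6.10 and 6.73 in tissue, a difference of -5.77 between the ICC classes (SE 0.39, adjusted p = 0.000113 over all probe sets). Pcdh17 was known to stand out in these arrays when the family was chosen, so these p-values are no independent support. Several ICC markers also split the classes: of 10, 5 were called higher in ICC-MY than in ICC-DMP and 1, Thbs4, lower. Of all genes, 3.3% were called higher in ICC-MY and 5.36% lower. The marker lists were chosen with earlier results of these data known, so this split is no independent support. Prkcq had means of 11.38 in ICC-MY, 6.86 in ICC-DMP and 6.92 in tissue, and Edn3 9.26, 5.63 and 5.61. Some vessel cell markers moved with Pcdh17 between the ICC classes. In ICC-MY, 3 of 8 endothelial markers (Cdh5, Esam and Cldn5) and 2 of 7 pericyte markers (Pdgfrb and Notch3) were higher than in ICC-DMP. Of the pericyte markers, 3 of 7 had higher means in ICC-DMP, with 0 called. Against tissue, 0 endothelial markers were called higher in ICC-MY and 1 was lower, while 2 pericyte markers were higher. Endothelial markers averaged 4.18 to 5.16 in ICC-MY, 3.63 to 3.83 in ICC-DMP and 4.88 to 5.26 in tissue, with 4, 6 and 3 of 8 below the array median on every array of the group, and pericyte markers averaged 7.64 to 8.44 in tissue. Pdgfrb had means of 8.68 in ICC-MY, 7.21 in ICC-DMP and 5.31 in tissue. The part of these cells in the Pcdh17 values was not tested.

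In ICC-DMP, Pcdh17 read below tissue (-1.18 on the log2 scale, SE 0.36) and did not pass (adjusted p = 0.0827, where passing means below 0.05 after adjustment over all genes), although the arrays did not overlap. It passed with the replicate number as a block (-1.11, adjusted p = 0.037) and without TM1 (-1.73, adjusted p = 0.0234). The other probe set differed by -0.75 (SE 0.44, adjusted p = 0.407).

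Pcdh7 and Pcdh18 had the opposite pattern, with their lowest values in ICC-MY. Pcdh7 is a delta-1 protocadherin whose tail binds the phosphatase PP1 and the protein SET. It read 4.37, 4.10 and 3.58 in ICC-MY, 6.43, 6.73 and 6.59 in ICC-DMP, and 6.48 and 7.13 in tissue. All ICC-MY arrays lay below all others, while ICC-DMP and tissue overlapped. ICC-DMP exceeded ICC-MY by 2.57 (SE 0.24, 5.93-fold, adjusted p = 0.000334), and ICC-MY lay below tissue (-2.79, SE 0.27, adjusted p = 0.000292). ICC-DMP and tissue differed by -0.22 (SE 0.27, adjusted p = 0.775). A dimmer Pcdh7 probe set moved in the same directions without passing (1.37, SE 0.35, adjusted p = 0.0609 between the ICC classes), and another gave 0.12 (SE 0.24, adjusted p = 0.882).

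Pcdh18, a delta-2 member, read 5.52, 5.08 and 5.51 in ICC-MY, 6.53, 6.12 and 6.48 in ICC-DMP, and 6.51 and 7.34 in tissue. ICC-MY again lay below every array of both other groups. It was lower than in tissue (-1.55, SE 0.27, 2.93-fold, adjusted p = 0.00594), and ICC-DMP exceeded it by 1.01 (SE 0.24, 2.01-fold, adjusted p = 0.0385). The second call was lost without DMP1, DMP2 or DMP3 (adjusted p = 0.159, 0.0689 and 0.135) and without MY2 or MY3 (0.127 and 0.0814). A second Pcdh18 probe set gave a difference of 1.72 between the classes (SE 0.24, adjusted p = 0.00324 over all probe sets). ICC-DMP and tissue differed by -0.55 (SE 0.27, adjusted p = 0.311).

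Smooth muscle markers moved with Pcdh7 and Pcdh18: the 9 markers averaged 7.01 to 7.72 in ICC-MY, 9.72 to 9.99 in ICC-DMP and 10.43 to 11.36 in tissue, 7 of 9 were higher in ICC-DMP than in ICC-MY, and none was below the array median on every array of a group. Fibroblast and PDGFRA cell markers averaged 9.20 to 10.03 in ICC-MY, 10.33 to 10.74 in ICC-DMP and 10.48 to 11.53 in tissue, with 2 of 8 higher in ICC-DMP than in ICC-MY. The part of these cells in the Pcdh7 and Pcdh18 values was not tested.

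**Figure D1:**
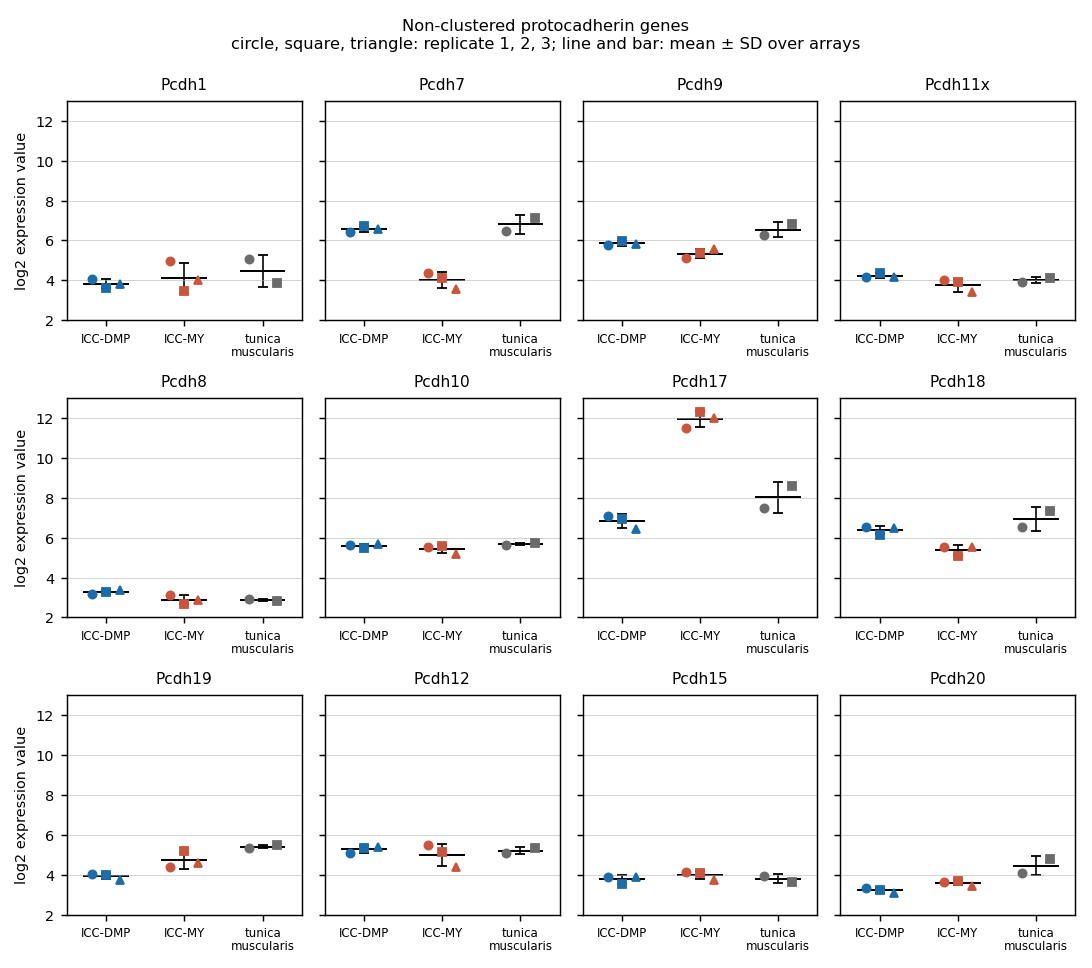
Log2 expression values (vertical axis) of the 12 non-clustered protocadherin genes on each of the 8 arrays, by group (horizontal axis); points are arrays, lines and bars the mean ± SD. Pcdh17 lies at 11.50 to 12.29 in ICC-MY and at or below 8.56 elsewhere, while Pcdh7 lies at 3.58 to 4.37 in ICC-MY and at or above 6.43 elsewhere.

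Pcdh17, Pcdh7 and Pcdh18 are the members called between the ICC classes, so the 250 bases before their start sites are shown, as RefSeq gives them (build GRCm38.p6), 5′ to 3′ on the gene's strand. Capitals mark each CCAAT box, searched as CCAAT and its reverse complement ATTGG; the motif was chosen after the sequences had been read.
Pcdh17, GRCm38.p6 chr14:84443313-84443562, plus strand: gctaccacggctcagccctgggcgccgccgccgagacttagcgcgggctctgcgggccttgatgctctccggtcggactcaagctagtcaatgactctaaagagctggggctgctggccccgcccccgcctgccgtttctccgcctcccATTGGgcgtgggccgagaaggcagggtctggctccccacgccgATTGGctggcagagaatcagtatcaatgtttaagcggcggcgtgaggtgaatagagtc
Pcdh7, GRCm38.p6 chr5:57717831-57718080, plus strand: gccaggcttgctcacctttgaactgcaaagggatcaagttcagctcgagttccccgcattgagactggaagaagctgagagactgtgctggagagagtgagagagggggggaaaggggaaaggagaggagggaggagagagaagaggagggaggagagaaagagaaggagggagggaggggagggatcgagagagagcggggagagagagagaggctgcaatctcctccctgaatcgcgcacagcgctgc
Pcdh18, GRCm38.p6 chr3:49757317-49757566, minus strand: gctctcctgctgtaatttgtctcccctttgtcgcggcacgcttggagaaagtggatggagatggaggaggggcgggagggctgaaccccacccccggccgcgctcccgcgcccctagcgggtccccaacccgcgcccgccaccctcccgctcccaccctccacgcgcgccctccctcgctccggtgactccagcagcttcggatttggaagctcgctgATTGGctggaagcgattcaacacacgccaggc
Pcdh17 had 2 matches, whose last bases lie 97 and 54 bases before the start site, Pcdh18 had 1 at 28 bases, and Pcdh7 had 0. The motif stood in 33.9% of 32841 windows of this length. The GC box (GGGCGG or CCGCCC), which overlaps no match shown in capitals, was found once in Pcdh17 and once in Pcdh18 and in 32.7% of all windows, and the TATA box (TATAAA or TTTATA) in none of these 3 and in 12.4%. Among the 9 non-clustered members whose window was searched, 8 held a CCAAT box, Pcdh7 being the exception. Pcdh17 held 21 CG dinucleotides, Pcdh18 23 and Pcdh7 7. A match is a string of letters and not evidence of binding.

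The other delta-2 members were Pcdh19, Pcdh10 and Pcdh8. Pcdh19, an X-linked gene mutated in a childhood epilepsy, read 4.02, 4.0 and 3.74 in ICC-DMP, 4.37, 5.19 and 4.57 in ICC-MY, and 5.35 and 5.46 in tissue. The 3 groups did not overlap, in the order ICC-DMP, ICC-MY, tissue. ICC-DMP lay below tissue (-1.48, SE 0.24, 2.80-fold, adjusted p = 0.00547), and a second probe set gave -1.22 (SE 0.23, adjusted p = 0.00862). ICC-MY did not pass against tissue (-0.70, SE 0.24, adjusted p = 0.111), but did without MY2 (-0.94, adjusted p = 0.0169). The ICC classes differed by -0.79 (SE 0.22, adjusted p = 0.0679), which passed under the replicate block (adjusted p = 0.0211) and when MY1 was left out (-0.96, adjusted p = 0.0256).

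Pcdh10, which acts in axon guidance and synapse elimination, depended on the probe set. The brightest of its 6 read 5.49 to 5.67 in ICC-DMP, 5.20 to 5.56 in ICC-MY, and 5.63 and 5.73 in tissue. It did not pass (-0.08, SE 0.16, adjusted p = 0.88 for ICC-DMP and -0.25, SE 0.16, adjusted p = 0.452 for ICC-MY, each minus tissue). The next read 2.63, 2.81 and 3.05 in ICC-DMP, 2.63, 2.60 and 2.37 in ICC-MY, and 6.41 and 5.90 in tissue, and another 2.24 to 2.49 in the isolated cells and 5.29 and 5.06 in tissue. On both of these the isolated cells were far below tissue. The first of them differed by -3.32 (SE 0.20, adjusted p = 2.91e-05 over all probe sets) in ICC-DMP and by -3.62 (SE 0.20, adjusted p = 2.17e-05) in ICC-MY. The other differed by -2.79 (SE 0.14) and -2.73 (SE 0.14). With the mean of its probe sets, Pcdh10 passed at -1.13 (adjusted p = 0.000406) and -1.16 (adjusted p = 0.000293).

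Pcdh8, an activity-induced protocadherin that controls internalisation of a partner cadherin, read 2.69 to 3.35 over the 8 arrays, below the array median on each, and did not pass in any comparison (0.40, SE 0.17, adjusted p = 0.21 for ICC-DMP minus tissue was the largest difference).

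Pcdh9, a delta-1 gene strongly expressed in the nervous system, also had probe sets that differed in size. The brightest read 5.76, 5.98 and 5.83 in ICC-DMP, 5.10, 5.37 and 5.55 in ICC-MY, and 6.28 and 6.81 in tissue, 3 groups without overlap. ICC-MY lay below tissue (-1.20, SE 0.21, 2.30-fold, adjusted p = 0.00562). ICC-DMP did not pass (-0.68, SE 0.21, adjusted p = 0.0792), but did so with the block (-0.73, adjusted p = 0.0245) and without TM1 (-0.95, adjusted p = 0.0403). The next probe set read 3.25 to 3.46 in ICC-DMP, 2.96 to 3.13 in ICC-MY, and 5.94 and 6.60 in tissue. There both classes were below tissue (-2.89, SE 0.20, adjusted p = 5.58e-05 over all probe sets, and -3.21, SE 0.20, adjusted p = 3.96e-05).

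The remaining delta-1 genes did not pass. Pcdh1, known from airway epithelium, read 3.61 to 4.08 in ICC-DMP, 3.46 to 4.95 in ICC-MY, and 5.05 and 3.89 in tissue, with its 2 highest values on the 2 narrow-range arrays. Pcdh11x, an X-linked gene, read 4.15 to 4.38, 3.40 to 4.01, and 3.92 and 4.14, and differed by 0.47 between the ICC classes (SE 0.19, adjusted p = 0.222).

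Of the non-clustered genes outside these classes, Pcdh20 was below tissue in both ICC classes. It read 3.32, 3.25 and 3.09 in ICC-DMP, 3.65, 3.66 and 3.44 in ICC-MY, and 4.10 and 4.77 in tissue, again without overlap. Only the TM2 value was above the array median. The differences were -1.21 (SE 0.21, adjusted p = 0.00746) and -0.85 (SE 0.21, adjusted p = 0.0316). Its other probe set gave -0.11 (SE 0.13) in each class, with adjusted p = 0.767 and 0.728 over all probe sets. The ICC-MY call was lost without DMP1, DMP2 or DMP3 (adjusted p = 0.061, 0.0631 and 0.0518), without MY2 or MY3 (0.0659 and 0.0929) and without TM2 (-0.51, adjusted p = 0.165). Pcdh12, an endothelial protocadherin, read 5.07 to 5.37, 4.37 to 5.46, and 5.06 and 5.31, overlapping in all 3 groups. Pcdh15, a tip-link protein of hair cells, read 3.52 to 3.89, 3.74 to 4.14, and 3.95 and 3.64.

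Over the 12 non-clustered genes, 2 were lower and 0 higher in ICC-DMP than in tissue, where 11% of all genes passed, 7.32% as lower. In ICC-MY against tissue 4 were lower and 1 higher, where 13.8% of all genes passed, 9.78% as lower and 4.05% as higher. Between the ICC classes 2 were higher in ICC-DMP and 1 lower, where 8.67% of all genes passed, 5.36% as higher and 3.3% as lower. Groups did not overlap for 6, 7 and 8 of the 12, against 38.5%, 34.2% and 25.6% of all genes. Their median differences were -0.38, -0.29 and 0.21, against -0.04, -0.02 and -0.02 over all genes. Both comparisons with tissue used the same 2 tissue arrays. Pcdh17, known to stand out when the family was chosen, gave the 1 higher call in ICC-MY and the 1 lower call between the classes.

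The genes with values higher in tissue (Pcdh19, Pcdh20, Pcdh9 and the 2 dimmer Pcdh10 probe sets) moved with markers of several other cell types. Of 13 neuron markers, 12 were lower in ICC-DMP and 11 in ICC-MY than in tissue, and 8 and 6 of them lay below the array median on every array of those classes. All 8 mesothelial markers and 8 of 10 macrophage markers were lower in each ICC class. Out of 9 smooth muscle markers, ICC-DMP was called below tissue for 5 and ICC-MY for 8. Among the 8 listed for fibroblasts and PDGFRA cells, these calls numbered 1 in ICC-DMP and 5 in ICC-MY. Smooth muscle marker averages fell from tissue to ICC-DMP to ICC-MY, the group order of the brightest Pcdh9 probe set. Pcdh19 and Pcdh20 had another order, with ICC-DMP lowest. Of 6 glial markers 2, and of 8 epithelial markers 2, were lower in each class. Of 8 endothelial markers 3 were lower in ICC-DMP and 1 in ICC-MY, and of 7 pericyte markers 2 were higher in each. The part of these cells in the protocadherin values was not tested.

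The calls of the clustered genes with a probe set of their own, the beta genes and Pcdhgc4, were all higher in the isolated cells; the alpha genes are described further on. In ICC-DMP 5 of 23 were higher than in tissue and 0 lower (3.72% of all genes were higher), and in ICC-MY 4 were higher and 0 lower (background 4.05% higher). Their median differences were 0.39 and 0.13, and 18 and 19 of the 23 differences were above 0. With the replicate block 8 clustered genes were higher in ICC-DMP, where the block called 5.46% of all genes higher, and 6 in ICC-MY, where it called 5.93% higher. Of the 23 genes, 11 were at or below the array median on all 8 arrays (2.42 to 3.99), 47.8% of the clustered genes against 28.5% of all genes. Over all 23, differences ran from -0.16 to 2.29 in ICC-DMP and from -0.16 to 1.49 in ICC-MY. Groups did not overlap for 13 of the 23 in ICC-DMP against tissue and for 6 in ICC-MY against tissue, where 38.5% and 34.2% of all genes did not overlap.

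Pcdhgc4, a C-type gamma gene of the kind required for neuron survival, had the largest difference of the clustered genes against tissue. It read 5.10, 4.62 and 5.54 in ICC-DMP, 4.08, 4.42 and 4.38 in ICC-MY, and 2.71 and 2.89 in tissue. The 3 groups did not overlap, with tissue well below the array median. ICC-DMP exceeded tissue by 2.29 (SE 0.26, 4.89-fold, adjusted p = 0.000797) and ICC-MY by 1.49 (SE 0.26, 2.82-fold, adjusted p = 0.00594). The difference of 0.79 between the ICC classes (SE 0.23) did not pass (adjusted p = 0.0855), but did so with the block (adjusted p = 0.0307) and without DMP2 (1.03, adjusted p = 0.0325).

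Pcdhb genes encode protocadherins without the shared constant tail of the alpha and gamma proteins. Pcdhb7 read 4.83, 5.07 and 4.77 in ICC-DMP, 3.97, 4.71 and 4.76 in ICC-MY, and 3.38 and 3.41 in tissue. Both ICC classes lay above tissue on every array. The differences were 1.49 (SE 0.25, 2.82-fold, adjusted p = 0.00565) for ICC-DMP and 1.09 (SE 0.25, 2.12-fold, adjusted p = 0.0212) for ICC-MY. The second was lost without MY2 or MY3 (adjusted p = 0.0663 and 0.0632) and without TM1 or TM2 (0.0819 and 0.0856).

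Pcdhb16 read 8.53, 8.39 and 7.92 in ICC-DMP, 7.39, 7.66 and 7.16 in ICC-MY, and 6.03 and 6.84 in tissue. The groups did not overlap, in the order ICC-DMP, ICC-MY, tissue. ICC-DMP exceeded tissue by 1.84 (SE 0.29, 3.58-fold, adjusted p = 0.00428). ICC-MY did not pass against tissue (0.96, SE 0.29, adjusted p = 0.0644), but did so with the block (1.11, adjusted p = 0.00809) and without TM2 (1.37, adjusted p = 0.0263). The difference of 0.87 between the classes (SE 0.26, adjusted p = 0.0858) passed with the block (adjusted p = 0.0154). It also passed when only the 2 ICC classes were fitted (adjusted p = 0.0415). A second Pcdhb16 probe set read 5.48 to 5.73, 4.57 to 4.69, and 3.96 and 4.02 in the same order of groups, with 0.98 between the ICC classes (SE 0.12, adjusted p = 0.0015 over all probe sets) and 1.63 between ICC-DMP and tissue (SE 0.13, adjusted p = 0.000124).

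Pcdhb21 read 6.14, 6.44 and 6.91 in ICC-DMP, 5.88, 6.14 and 6.79 in ICC-MY, and 5.40 and 4.92 in tissue. Both classes were above tissue on every array and overlapped each other. ICC-DMP exceeded tissue by 1.33 (SE 0.32, adjusted p = 0.0328), a call lost without DMP2 or DMP3 (adjusted p = 0.0931 and 0.102), MY2 (0.0519) or TM1 or TM2 (0.0543 and 0.16). ICC-MY did not pass (1.11, SE 0.32, adjusted p = 0.0576), but did so with the block (0.88, adjusted p = 0.0214) and without MY1 (1.30, adjusted p = 0.0292).

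Pcdhb3 lay below the array median on every array and was higher in ICC-DMP (3.83, 3.72 and 3.99) than in tissue (3.36 and 2.88) by 0.73 (SE 0.18, adjusted p = 0.0394). This call was lost without DMP1, DMP2 or DMP3 (adjusted p = 0.118, 0.0811 and 0.131), MY2 or MY3 (0.0634 and 0.0612) or TM2 (0.186). Against ICC-MY (3.17, 3.34 and 3.35) the difference was 0.56 (SE 0.16, adjusted p = 0.0841), which passed when only the 2 ICC classes were fitted (adjusted p = 0.0448).

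Pcdhb9 and Pcdhb10 were the clustered members called in ICC-MY and not in ICC-DMP. Pcdhb9 read 7.56, 7.92 and 7.91 in ICC-MY, 7.30, 7.46 and 7.32 in ICC-DMP, and 6.62 and 7.25 in tissue, and ICC-MY exceeded tissue by 0.86 (SE 0.22, adjusted p = 0.0317). Without DMP1, DMP2 or DMP3 (adjusted p = 0.0634, 0.0598 and 0.0573), MY2 or MY3 (0.0924 and 0.0915) or TM1 (0.55, adjusted p = 0.162) it did not pass. Pcdhb10 read 4.98, 5.04 and 5.44 in ICC-MY, 4.87, 4.90 and 4.75 in ICC-DMP, and 4.49 and 4.31 in tissue, and ICC-MY exceeded tissue by 0.75 (SE 0.18, adjusted p = 0.0259). It did not pass without DMP1 or DMP2 (adjusted p = 0.0551 and 0.0532), MY3 (0.0569) or TM1 or TM2 (0.055 and 0.131). Neither passed between the ICC classes (-0.44, SE 0.19, adjusted p = 0.275 and -0.31, SE 0.16, adjusted p = 0.368), although Pcdhb9 did without the 2 narrow-range arrays (-0.56, adjusted p = 0.0259).

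Pcdhb20, among the 3 clustered genes with the highest mean, read 7.56 to 7.62 in ICC-DMP, 6.79 to 7.46 in ICC-MY, and 6.94 and 7.47 in tissue, and did not pass (0.39, SE 0.24, adjusted p = 0.429 for ICC-DMP minus tissue). Between the ICC classes limma called 0 of 23 clustered genes, where it called 8.67% of all genes. An unadjusted p below 0.05 was found for 5 of the 23, against 3360 of all 18193 genes. The 23 differences ran from -0.44 to 0.95, with a median of 0.04. With the replicate block 4 were higher in ICC-DMP, where it called 8.78% of all genes higher: Pcdhb16, Pcdhgc4, Pcdhb17 (0.95, SE 0.17, adjusted p = 0.00531) and Pcdhb22 (0.72, SE 0.17, adjusted p = 0.0224). Pcdhb17 read 7.40, 7.66 and 7.12 in ICC-DMP against 6.09, 6.82 and 6.43 in ICC-MY. The block also brought Pcdhb15 (0.86, adjusted p = 0.0101), Pcdhb17 (1.14, adjusted p = 0.00464) and Pcdhb22 (0.79, adjusted p = 0.0291) past the threshold in ICC-DMP against tissue. Pcdhb15, Pcdhb17 and Pcdhb22 were named after these values were seen. Pcdhb sequences resemble each other, so a probe set may also read its neighbours, and the beta genes cannot be counted as independent.

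**Figure D2:**
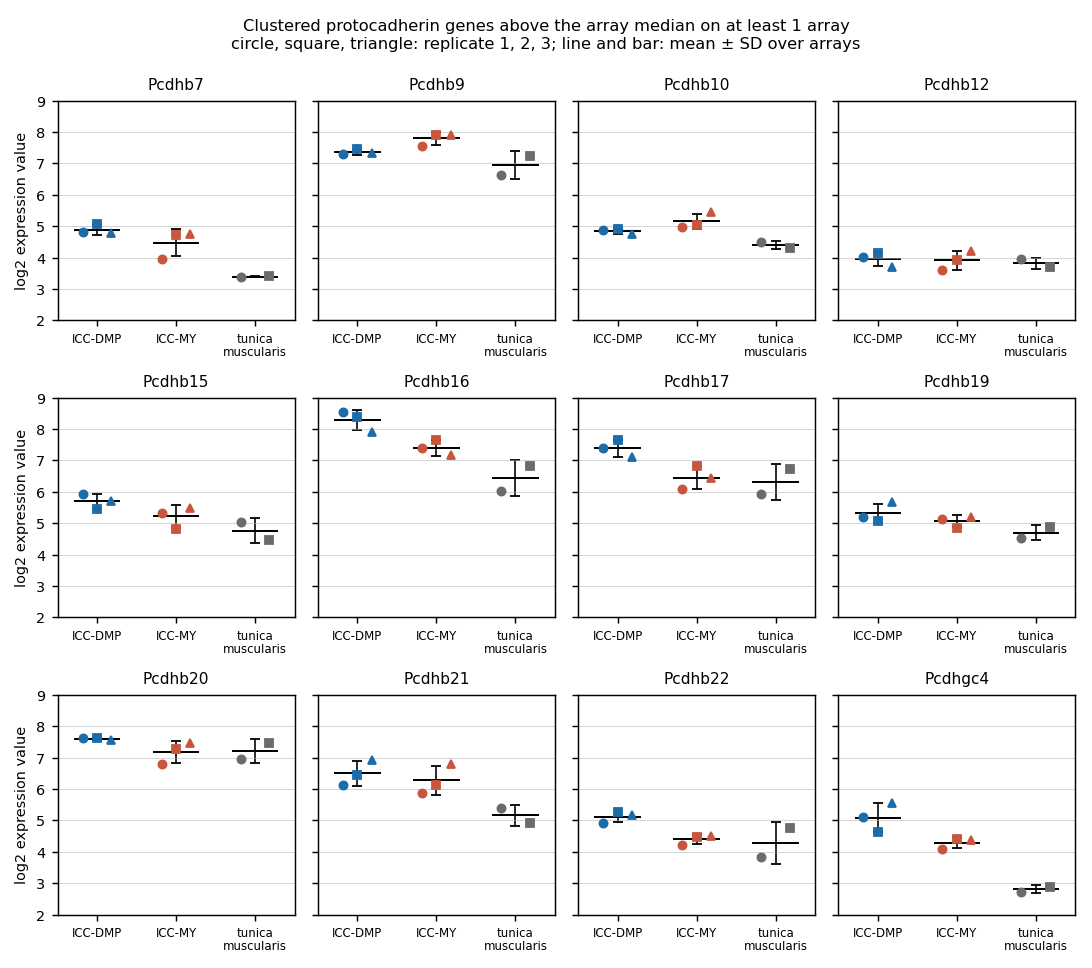
Log2 expression values (vertical axis) of the 12 clustered protocadherin genes above the array median on at least 1 array, by group (horizontal axis); points are arrays, lines and bars the mean ± SD. Pcdhgc4 and Pcdhb7 lie at or below 3.41 in tissue and at or above 3.97 in the isolated cells.

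Over the whole family, 7 of 35 genes passed in ICC-DMP against tissue (5 higher, 2 lower), 9 in ICC-MY against tissue (5 higher, 4 lower) and 3 between the ICC classes (2 higher in ICC-DMP, 1 lower). With the replicate block these counts were 12, 11 and 8, where it called 15.7%, 19.4% and 14.4% of all genes. Leaving out MY3 cut the second to 5, where 2099 of all genes passed, against 2516 in the main fit. Fitting only the 2 ICC classes raised the third to 7, where 1763 of all genes passed, against 1577. Fitting only the groups compared ended the ICC-MY calls of Pcdh20, Pcdhb7, Pcdhb9 and Pcdhb10 (adjusted p = 0.117, 0.0865, 0.122 and 0.11) and the ICC-DMP call of Pcdhb3 (0.0664). Array weights ended the ICC-DMP calls of Pcdhb21 and Pcdhb3 (0.0679 and 0.0541). As shares, 20% and 25.7% passed against tissue, where 11% and 13.8% of all genes did, and 8.57% between the ICC classes, where 8.67% did.

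**Figure D3:**
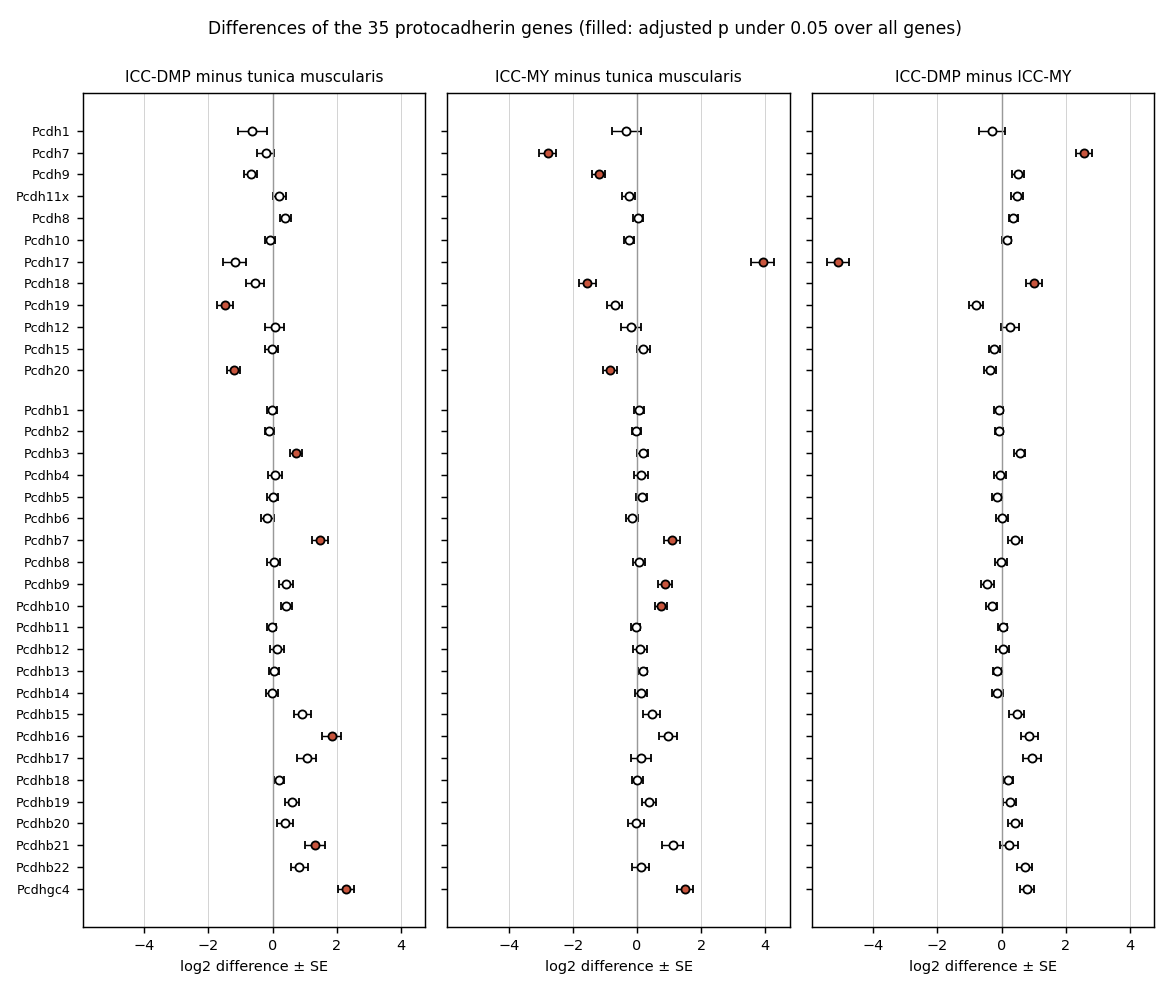
Log2 differences ± SE (horizontal axis) of the 35 protocadherin genes (vertical axis, non-clustered above, clustered below) in the 3 comparisons; filled points passed at an adjusted p under 0.05 over all genes. Filled points of clustered genes all lie above 0 (0.73 to 2.29), while those of non-clustered genes run from -5.10 to 3.92.

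The alpha cluster was read by 6 probe sets, each annotated to between 9 and 14 Pcdha genes, so their values are given for no single gene. On 3 of them tissue was far above the isolated cells. The brightest read 2.79, 2.96 and 3.21 in ICC-DMP, 2.33, 2.75 and 2.75 in ICC-MY, and 6.51 and 7.31 in tissue. The isolated cells lay below the array median and tissue well above it, a difference of -3.92 (SE 0.26, adjusted p = 4.49e-05 over all probe sets) for ICC-DMP and -4.30 (SE 0.26, adjusted p = 3.44e-05) for ICC-MY. The other 2 gave -2.74 (SE 0.19) and -1.40 (SE 0.18) in ICC-DMP and -2.69 (SE 0.19) and -1.25 (SE 0.18) in ICC-MY. The remaining 3 read 2.45 to 3.04 on every array and did not pass. The 3 called alpha probe sets lay on the other side of tissue from the called beta and gamma genes. The mean of the enteric neuron markers was 7.87 to 8.24 in tissue and at or below 4.08 in the isolated cells, with single markers such as Elavl3 (5.38 to 5.51 in ICC-DMP and 6.67 to 6.84 in ICC-MY) above that, and their part in the alpha values was not tested.

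**Figure D4:**
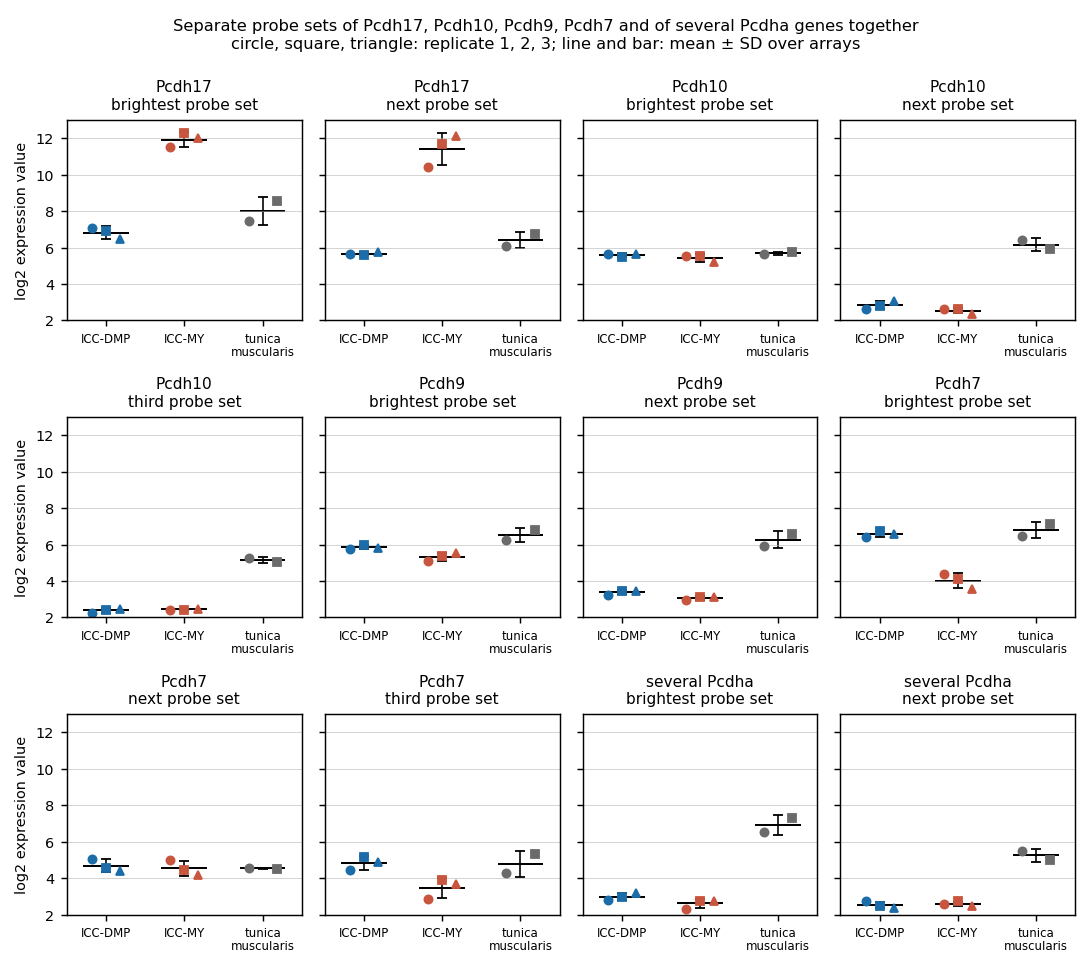
Log2 expression values (vertical axis) of separate probe sets of Pcdh17, Pcdh10, Pcdh9 and Pcdh7 and of 2 probe sets shared by several Pcdha genes, by group (horizontal axis); points are arrays, lines and bars the mean ± SD. Both Pcdh17 probe sets are highest in ICC-MY, whereas the next Pcdh10 probe set (5.90 and 6.41 in tissue, at or below 3.05 in the isolated cells) departs from the brightest one.

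Tested by itself, each of the 62 probe sets that name 1 protocadherin gene gave 7 higher and 7 lower calls in ICC-DMP against tissue, where 12.6% of all 45037 probe sets passed, 7.16% as higher and 5.4% as lower. In ICC-MY against tissue 7 were higher and 8 lower, with 12.6% of all probe sets passing, 5.95% as higher and 6.68% as lower. Between the ICC classes 4 were higher in ICC-DMP and 2 lower, with 7.41% passing, 4.88% as higher and 2.52% as lower. The 2 lower ones were the probe sets of Pcdh17, which were also among the higher calls in ICC-MY against tissue. No gene had probe sets called in opposite directions (0 in each comparison).

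Genes that work with protocadherins were read from 4 lists. Of 17 measured cytoplasmic partners, 1 was higher and 1 lower in ICC-DMP than in tissue, 1 higher and 4 lower in ICC-MY than in tissue, and 3 higher and 1 lower in ICC-DMP than in ICC-MY (median differences 0.12, 0.01 and 0.12). The shares called were 11.8%, 29.4% and 23.5%, where 11%, 13.8% and 8.67% of all genes were called. Cdh2, which encodes N-cadherin, a cis partner of delta-2 protocadherins, was lower than in tissue in both classes (-3.89, SE 0.21, adjusted p = 1.38e-05 and -3.86, SE 0.21, adjusted p = 1.35e-05). Wasf1, a WAVE subunit, had means of 8.87 ± 0.05, 7.19 ± 0.17 and 8.75 ± 0.27 (SD, n = 3, 3 and 2) in ICC-DMP, ICC-MY and tissue. It was lower in ICC-MY than in ICC-DMP (difference 1.68, SE 0.15, adjusted p = 0.000291), as was Cyfip2 of the same complex (1.44, SE 0.20, adjusted p = 0.00283). The other WAVE genes on the list did not pass between the classes, and Abi2, named after its values were seen, was higher in ICC-MY than in tissue (1.20, SE 0.30, adjusted p = 0.0317). Cdh11, another classical cadherin, was higher in ICC-DMP than in ICC-MY (1.66, SE 0.33, adjusted p = 0.0159).

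Of 16 genes of cluster promoter choice and chromatin, 2 exceeded tissue in ICC-DMP and 1 did in ICC-MY, with 0 lower, or 12.5% and 6.25% against the 11% and 13.8% of all genes. They were Pds5a, a cohesin regulator (1.54, SE 0.25, adjusted p = 0.00525 and 1.43, SE 0.25, adjusted p = 0.00605), and in ICC-DMP Rest, a repressor of neuronal genes (0.90, SE 0.21, adjusted p = 0.0278). Between the ICC classes limma called 0, where 8.67% of all genes were called. An unadjusted p below 0.05 was found for 3, against 3360 of 18193 genes. Of 6 shedding and tail release genes, 1 was higher in ICC-DMP than in ICC-MY (16.7% called, against 8.67% of all genes). It was Psen2, a gamma-secretase subunit (0.68, SE 0.15, adjusted p = 0.0266). Against tissue limma called 0 in each class, where 11% and 13.8% of all genes were called. There 0 in ICC-DMP and 1 in ICC-MY had an unadjusted p below 0.05, against 3945 and 4472 of 18193 genes.

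Of 12 large cadherins and calsyntenins, 3 were higher in ICC-DMP than in ICC-MY: Fat3 (2.29, SE 0.41, adjusted p = 0.00939), Fat4 (1.63, SE 0.27, adjusted p = 0.00665) and Fat1 (1.38, SE 0.31, adjusted p = 0.0274), giant cadherins of planar cell polarity. Fat4 was also lower in ICC-MY than in tissue (-2.34, SE 0.30, adjusted p = 0.00126). Clstn1, a kinesin cargo adaptor, was higher in ICC-MY than in tissue (1.54, SE 0.35, adjusted p = 0.0213). The 12 had 1 lower call in ICC-DMP against tissue and 1 higher and 2 lower in ICC-MY against tissue. The shares called were 8.33% and 25% against tissue, where 11% and 13.8% of all genes were called, and 25% between the ICC classes, where 8.67% were.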

How the data were processed

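Single-channel oligonucleotide arrays measured RNA in 3 groups taken from the sample titles, with RNA amplified in 2 rounds, per the labels' protocols. Each probe set has 1 deposited log2 value per array (1.87 to 14.0 in all). Of tools, RMA and limma appear in the submitters' processing notes, with no version or order; no source used here says if all arrays were normalized jointly. No detection calls were used, and no further normalization was applied. Of 45101 probe sets, 64 controls were left out; 34945 named 1 gene, 932 several and 9160 none. The array annotation's Entrez identifiers matched the RefSeq table (GRCm38.p6) for 34741, and 0 symbols changed.

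The test was limma's moderated fit (version 3.58.1 under R 4.3.3) of the 3 groups on all 8 arrays, with 5 residual and 3.17 prior degrees of freedom, 2-sided and Benjamini-Hochberg adjusted over 18193 genes. Genes below an adjusted p of 0.05 are said to pass. P-values called "over all probe sets" come from the same fit on 45037 probe sets, an alternative added after the data were seen. A fold is 2 to the power of a log2 difference. The sample titles call the replicates biological but do not say whether they are separate animals, so p-values measure the spread between samples. The method was tested on simulated data in which arrays varied independently, so that test does not cover shared deviations of same-numbered arrays.

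Replicate numbers are shared by the groups. Deviations from the group means correlated between all same-numbered arrays of different groups (0.16 to 0.61 over 7 pairs). Arrays of different groups with different numbers gave -0.61 to 0.17. The 2 tissue arrays deviate from their mean by equal and opposite amounts, so pairs with TM1 and with TM2 are not separate evidence. The fit with the number as a block is given where it changes a call. The labels do not say what a shared number marks.

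The members and gene lists were chosen with earlier results of these data known. Named were all non-clustered members, clustered members called in at least 1 comparison or among the 3 with the highest mean, and up to 4 called genes of each other list. Promoter windows on the chromosome of the protocadherin clusters were left out by rule, and 9 of the 12 non-clustered members had a window that was searched.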

Additional observations from a re-analysis of the deposited data

Results flagged for a closer look

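The effects of the 2 ICC classes against the same tissue arrays differed for 3 protocadherin genes, by limma's test of ICC-DMP minus ICC-MY, in which the shared tissue arrays cancel. For Pcdh17 the difference was -5.10 (SE 0.33, adjusted p = 5.65e-05), with ICC-MY above tissue and ICC-DMP below it on every array. Pcdh17 was known to stand out when the family was chosen, so its p-value is no independent support. For Pcdh7 it was 2.57 (SE 0.24, adjusted p = 0.000334) and for Pcdh18 1.01 (SE 0.24, adjusted p = 0.0385), and in both the ICC-MY arrays were below all other arrays. Groups of 2 or 3 arrays are too small for a test of single outlying arrays.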

How the results depend on the processing

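Of 60 pairs of a named protocadherin gene and a comparison, 19 passed, and 12 of these passed under every one of the 17 alternatives that could be run on them, with 0 changes of sign among called values. Of the 41 pairs that did not pass, 14 did under at least 1 alternative. The number of members passing in ICC-DMP against tissue, 7, rose to 12 with the replicate block and 11 when a gene's probe sets were averaged. Dropping MY1 and TM1, the 2 narrow-range arrays, leaves 1 tissue array, so its count against tissue is not given here. In ICC-MY against tissue the number, 9, was 5 with only the 2 groups compared. It was 5 to 10 with 1 ICC array left out, where 1993 to 2960 of all genes passed. Between the ICC classes the number, 3, was 8 with the replicate block, 8 under quantile normalization, 5 with the mean of a gene's probe sets, 7 with only the 2 groups compared, 10 with array weights, 7 with an intensity trend, 8 without the 2 narrow-range arrays, and 2 to 7 with 1 array left out. The highest of these comes from leaving out either tissue array, after which the tissue group has no spread of its own. For this comparison that fit equals the fit of only the 2 groups, so these alternatives are not separate support. The replicate block gained 12 calls among the members, lost 0 and changed no other call. Over all genes it raised the calls from 2009 to 2853, from 2516 to 3537 and from 1577 to 2617. The all-gene counts also moved by over 1.5 times under quantile normalization (3121, 3905 and 2557), with only the 2 groups in ICC-MY against tissue (1520), without DMP1 or DMP2 in ICC-DMP against tissue (1264 and 1296) and between the ICC classes (991 and 996), and between the ICC classes with array weights (2646) or without the 2 narrow-range arrays (2630). With the mean of a gene's probe sets the all-gene counts were 2505, 2802 and 1752. Between the ICC classes they were 1763 with only the 2 groups compared and 1732 with an intensity trend. Dim genes removed left 19 members, without Pcdh20 and Pcdhb3 among others, so these have no value there. With 1 tissue array left out, the remaining one is assumed to vary like the other groups. Values near the array median may not be above background, which cannot be told without detection calls.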
